A study of Homo sapiens with 6 samples.

Results

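The genes that build the actin and tubulin cytoskeleton were followed, together with their numbered copies, between whole cells (WC) and extracellular vesicles (EVs) of K562, a cell line derived from a human chronic myelogenous leukaemia. Members were chosen by gene symbol: 17 functional genes (ACTB, ACTG1, TUBA1A, TUBA1B, TUBA1C, TUBA4A, TUBB, TUBB2A, TUBB4B, TUBB6, TUBG1, TMSB4X, TMSB10, PFN1, PFN2, CFL1 and CFL2) and every symbol made of such a name, the letter P and a number. Earlier results of these data were known when this rule was set. The rule found 101 gene IDs of 92 symbols among 68201 genes. Of these, 24 IDs belong to the functional genes, since TUBB has 8 IDs, and 77 IDs belong to copies. RNA of 3 WC and 3 EV libraries was sequenced on nanopores as cDNA that had been primed at poly-A tails and amplified by PCR. All libraries came from wild-type, untreated K-562 grown in RPMI medium. The vesicles were collected from medium with EV-depleted serum and purified by size exclusion chromatography, and the WC and EV libraries of a replicate came from the same cultures, as the study's methods describe. A single cell line was used, and the EV libraries are bulk preparations of many vesicles, so more vesicles carrying an RNA and more of it per vesicle cannot be told apart.

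Actin monomers polymerise into filaments. Profilins bring monomers to growing ends, cofilins sever and depolymerise older filaments, and beta-thymosins bind monomers and hold them in reserve. Alpha- and beta-tubulin form the dimers of the microtubule wall, while gamma-tubulin nucleates new microtubules. These genes are expressed in nearly all cells at high level, and many of them have left processed pseudogenes, intronless DNA copies made from their mRNAs by reverse transcription. Such copies are so close in sequence to the functional gene that a read can be hard to place.

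The sequences below show how little separates some members and how much separates others. All were taken from GENCODE v44 transcripts on GRCh38, are written from 5′ to 3′ and are in lower case, with capitals where a base differs from the first sequence of its set. The first set holds a stretch of the thymosin beta-4 coding sequence from coding base 103, in TMSB4X (chrX:12976779-12976808, + strand, an exon) and in the facing bases of its copies TMSB4XP8 (chr4:90838906-90838935, - strand), TMSB4XP4 (chr9:128342334-128342363, + strand), TMSB4XP1 (chr1:42500208-42500237, - strand) and TMSB4XP2 (chr2:3617551-3617580, - strand). Of all coding windows of 30 bases within an exon, it is one where the copies differ most from TMSB4X.

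TMSB4X: attgaacaggagaagcaagcaggcgaatcg
TMSB4XP8: attgaacaggagaagcaagcaggcgaatcg
TMSB4XP4: attgaacaggagaagcaagcaAgcgaatcg
TMSB4XP1: attgaacaggagaagcaagcaggcgaatcA
TMSB4XP2: aCtgaacaggagaagcaagcaggcAaatcg

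TMSB4XP8 differed from TMSB4X at 1 of the 135 coding bases, TMSB4XP1 at 2 of 135, TMSB4XP4 at 3 of 135 and TMSB4XP2 at 3 of the 134 that aligned. The only difference of TMSB4XP8 lies at coding base 46 and is shown with its surroundings, in TMSB4X at chrX:12976292-12976321 and in the copy at chr4:90838978-90839007.

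TMSB4X: gagaaattcgataagtcgaaactgaagaag
TMSB4XP8: gagaaattcgataagCcgaaactgaagaag

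The functional genes of a family are farther apart. ACTB and ACTG1 shared 91.2% of their 1128 coding bases, and their first 30 coding bases, where the proteins also differ, lie on the - strand at chr7:5529628-5529657 and chr17:81512325-81512354.

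ACTB: atggatgatgatatcgccgcgctcgtcgtc
ACTG1: atggaAgaAgaGatcgccgcgctGgtcAtT

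Beta-tubulins differ most at their ends, which encode the acidic tail of the protein. The last 30 coding bases, stop codon included, lie at chr6:30724368-30724397 (+) in TUBB, chr6:3153863-3153892 (-) in TUBB2A, chr9:137243527-137243556 (+) in TUBB4B and chr18:12326101-12326130 (+) in TUBB6. They were compared base by base from the stop codon, without alignment. The coding sequence has 1335 bases in TUBB, 1338 in TUBB2A and TUBB4B and 1341 in TUBB6. Capitals in this set can therefore mark bases out of register as well as substitutions, and overstate the difference.

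TUBB: ttcggtgaggaggccgaagaggaggcctaa
TUBB2A: GAGgAGgaggaggGcgaGgaCgaggcTtaa
TUBB4B: GAGgAGgaggCTgAGgaGgaggTggcctaG
TUBB6: GAGgAtgaggaAgAGgaGATCgaTgGAtaG

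Over the whole coding sequence TUBB shared 84.7% of its bases with TUBB2A, 84.4% with TUBB4B and 81.0% with TUBB6. The alpha-tubulins TUBA1A, TUBA1B and TUBA1C were closer to each other, with 95.9% to 97.2% identity between them and 84.4% to 85.7% to TUBA4A.

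Gene counts summed to 2480560 to 3178211 in WC and to 560157 to 881338 in EV libraries, so EV values rest on fewer reads. The label of K562 was checked against erythroid markers. Of 11, 10 had enough reads to be tested, among them GATA1 and the fetal globin genes HBG1 and HBG2, while HBE1 had 3 WC and 2 EV reads. Of these 10, 7 reached the minimum of the expression filter in all libraries of both groups. HBZ (19 WC reads) and TAL1 (45 WC reads) reached it in all EV but not all WC libraries. Being tested does not by itself show that these 2 were expressed in the cells. Of the markers of other cell types reported here, MS4A1, KRT5, ALB and COL1A2 had no read, and CD3E, CD14 and COL1A1 had at most 1 in a group. CD3D, a T cell gene, had 272 WC and 58 EV reads (log2 fold change 0.48, SE 0.26, and -0.17 with total-count scaling), and its part in the results was not tested.

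Of the 101 IDs, 19 passed the expression filter, 13 functional genes and 6 copies. All of the 19 passed the filter's minimum of 5.95 CPM (read counts scaled to a common library size) in the 3 WC libraries, and 17 also did so in the 3 EV libraries. TUBA4A and TUBB4B did not reach it in all EV libraries. Unread were 7 TUBB IDs, which GENCODE v44 does not list, as well as PFN2. TUBA1B, TUBA1C and CFL2 had reads but too few for the test. Among copies, 32 IDs had no read, 26 had fewer than 10, 13 had 10 to 99 and 6 had at least 100, and these 6 were the ones tested.

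EV and WC libraries were compared with edgeR's quasi-likelihood test, with p-values adjusted over 8716 genes by Benjamini-Hochberg, and rose or fell means an adjusted p under 0.05. Levels are CPM scaled for library size and TMM factor, a composition correction, and serve only to compare a gene with itself. Of the 13 functional genes tested, 5 rose in EVs (PFN1, CFL1, TUBB, TUBA1A and TUBG1), where 22.8% of all genes tested did so. A single functional gene fell, ACTB, where 21.4% of all genes did so, and 7 did neither. The median log2 fold change of the 13 was 0.35, against -0.13 over all genes tested and -0.24 over mRNA genes. All 3 EV values lay above all 3 WC values for 4 functional genes (25.5% of all genes) and below them for 1, TUBA4A (29.4% of all genes). TUBA4A reached the filter's minimum in all WC but not all EV libraries, so the filter itself favours lower EV values for it. None of the 6 copies rose or fell, and all 6 overlapped between the groups. At an unadjusted p under 0.05 edgeR and DESeq2 each had none of the 6 up and 1 down, TMSB4XP8. Over all pseudogenes tested 62.9% rose and 11.4% fell, with a median of 1.09, against a median of 0.05 for these 6 copies. The 6 reached the filter's minimum in all libraries of both groups, which was not required of the pseudogenes they are set against. TMSB4XP1, TMSB4XP2, TMSB4XP4 and TMSB4XP8 are also copies of the same gene, so the 6 are not separate cases. With no filter, which tests 45 copies, 3 copies rose and 1 fell, and with DESeq2 on these as many did. At a log2 fold change of at least 2 and an adjusted p of at most 0.01, PFN1 was the only member enriched in EVs (4.53% of all genes) and no member was enriched in WC (5.93% of all genes). The 2.07 of PFN1 lay near this cut, and several other settings, given below, put it under 2.

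Directions depend on how libraries are scaled. Total-count scaling in place of TMM moved the median of all genes tested from -0.13 to -0.78 and left PFN1, CFL1 and TUBB as the functional genes that rose, while 6 fell. Changes are given relative to TMM, and the sign under the other scaling is given where a named gene turned.

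**Figure D1:**
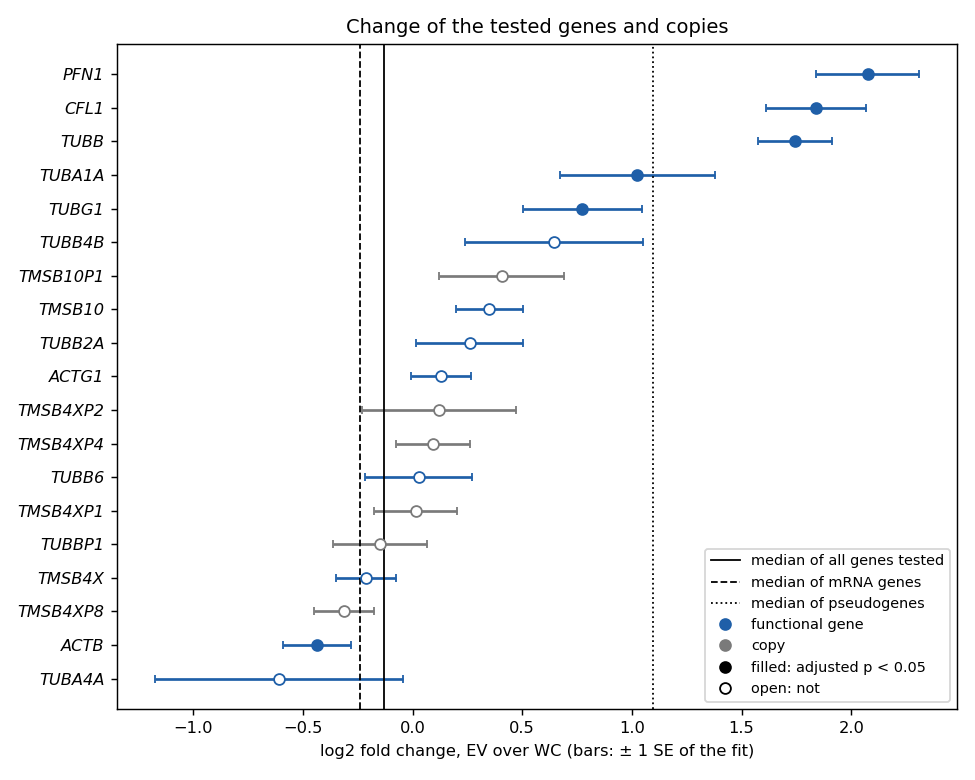
Log2 fold change of the 13 functional genes and 6 copies tested, EV over WC, with 1 SE worked back from the test statistic of the fit. Lines mark the medians of all genes, mRNA genes and pseudogenes. PFN1, CFL1 and TUBB stand at 1.74 or above, and the 6 copies lie between -0.31 and 0.41, all left of the pseudogene median of 1.09; with total-count scaling TUBB4B, TMSB10, TUBB2A, ACTG1, TUBB6 and the copies drawn right of 0 turn negative.

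Beta-actin and gamma-actin are the cytoplasmic actins of non-muscle cells. ACTB stood at 988, 878 and 740 CPM in the WC libraries and at 793, 565 and 581 CPM in the EV libraries. The highest EV value lies above the lowest WC value, so the groups overlap. The means were 869 ± 124 CPM in WC and 646 ± 127 CPM in EVs (SD, n = 3 each), a log2 fold change of -0.44 (edgeR quasi-likelihood adjusted p = 0.024, SE 0.15). This call was lost without WC replicate 1 (-0.39), without EV replicate 2 (-0.35) and without EV replicate 3 (-0.37).

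ACTG1 stood at 953, 974 and 965 CPM in WC and at 1252, 957 and 982 CPM in EV libraries, with overlapping groups and the highest value in EV replicate 1. Its log2 fold change was 0.13 (edgeR adjusted p = 0.46, SE 0.14), and -0.53 with total-count scaling, where it passed the threshold as a fall. Within a library, where scaling plays no part, ACTG1 had 0.965, 1.11 and 1.31 reads per ACTB read in WC and 1.58, 1.69 and 1.69 in EVs. All 3 EV ratios lie above the 3 WC ratios (exact two-sided permutation test, p = 0.1, the lowest possible with 3 libraries a group, and 0.167 after adjustment over 15 ratios). Of the 15 ratios, 9 did not overlap between the groups. How often ratios of other gene pairs fail to overlap was not computed, so a lack of overlap in these ratios is a description only.

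Thymosin beta-4 and thymosin beta-10 are small proteins that sequester actin monomers. TMSB4X stood at 1351, 1278 and 1046 CPM in WC and at 1121, 1085 and 997 CPM in EV libraries. The groups overlap, and the log2 fold change was -0.21 (edgeR quasi-likelihood adjusted p = 0.21, SE 0.14). TMSB10 stood at 651, 498 and 444 CPM in WC and at 637, 720 and 698 CPM in EV libraries. WC replicate 1 lies among the EV values, and the log2 fold change was 0.35 (edgeR adjusted p = 0.065, SE 0.15) and -0.30 with total-count scaling. TMSB10 passed the threshold as a rise without WC replicate 1 (0.46) and without EV replicate 1 (0.37), and as a fall with total-count scaling. TMSB4X passed as a fall with total-count scaling (-0.87), with no filter (-0.43) and without WC replicate 3 (-0.39).

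The ratio of the 2 thymosins within a library was also among those that did not overlap. TMSB10 had 0.482, 0.390 and 0.425 reads per TMSB4X read in WC and 0.568, 0.664 and 0.700 in EVs, with every EV value above the WC values (exact permutation test, p = 0.1, adjusted p = 0.167).

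Profilin and cofilin, both regulators of actin turnover, had the largest rises among the members. PFN1 stood at 20.8, 16.2 and 13.02 CPM in WC and at 81.1, 66.1 and 60.8 CPM in EV libraries. The lowest EV value is far above the highest WC value, and the log2 fold change was 2.07 (edgeR quasi-likelihood adjusted p = 7.8e-08, SE 0.24). CFL1, non-muscle cofilin, stood at 26.2, 24.6 and 21.2 CPM in WC and at 62.2, 91.2 and 115 CPM in EV libraries. All EV values lie above the WC values, and the log2 fold change was 1.84 (edgeR adjusted p = 3.1e-07, SE 0.23). Both rises passed the threshold in all 15 settings, with values of 1.42 to 2.19 for PFN1 and of 1.18 to 2.05 for CFL1. PFN1 was under the enrichment cut of 2 with total-count scaling (1.42), DESeq2 (1.95), no filter (1.87) and thinned WC libraries (1.98). It was also under 2 with copies summed (1.497) and without WC replicate 2 (1.98), WC replicate 3 (1.85) or EV replicate 1 (1.89). In the other settings PFN1 stayed above 2. All settings started from the same gene counts.

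Their paralogs had few reads. PFN2, a profilin best known from neurons, had no read in either group. CFL2, the cofilin of muscle, had 39 WC reads and 9 EV reads, a TMM-scaled EV to WC ratio of 1.498 with a 95% interval of 0.638 to 3.14 that covers counting error only. At this depth no difference of CFL2 was detectable.

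TUBB, the class I beta-tubulin, rose as clearly as profilin and cofilin. It stood at 75.9, 78.1 and 90.6 CPM in WC and at 284, 258 and 286 CPM in EV libraries, 2 groups with little spread and a wide gap between them. The means were 81.5 ± 7.91 and 276 ± 15.9 CPM (SD, n = 3 each), a log2 fold change of 1.74 (edgeR quasi-likelihood adjusted p = 5.4e-09, SE 0.17). All of its reads were counted on 1 of its 8 IDs, the one on chromosome 6 (30717435 to 30725538, + strand).

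The other beta-tubulins did not pass the threshold. TUBB2A had a log2 fold change of 0.26 (SE 0.24), TUBB6 of 0.03 (SE 0.24) and TUBB4B of 0.64 (SE 0.41), and with total-count scaling these were -0.38, -0.62 and -0.0036. TUBB4B stood at 10.1, 7.96 and 8.21 CPM in WC and at 6.76, 22.8 and 15.8 CPM in EV libraries, so that EV replicate 1 lies below all WC libraries and the others above. Without EV replicate 1 the value of TUBB4B was 1.10 and passed the threshold.

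Beside TUBB, the other beta-tubulins therefore had smaller shares in EVs. Per TUBB read, TUBB2A had 0.624, 0.484 and 0.328 reads in WC and 0.195, 0.150 and 0.142 in EV libraries. TUBB6 had 0.513, 0.379 and 0.372 per TUBB read in WC and 0.133, 0.115 and 0.126 in EV libraries. For both genes the groups do not overlap, nor do they for TUBB4B, and each of these 3 ratios had p = 0.1 by the exact permutation test (adjusted p = 0.167). Ratios among TUBB2A, TUBB4B and TUBB6 overlapped between the groups.

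TUBA1A was the only alpha-tubulin that rose, and EV replicate 1 did not share the rise. It stood at 46.0, 52.3 and 62.0 CPM in WC and at 47.3, 137 and 162 CPM in EV libraries, so the groups overlap. The log2 fold change was 1.02 (edgeR quasi-likelihood adjusted p = 0.037, SE 0.35). It missed the threshold with total-count scaling (0.35), with WC libraries thinned to the depth of EVs (0.83) and without any single library other than EV replicate 1 (WC replicate 1 0.86, WC replicate 2 0.94, WC replicate 3 1.07, EV replicate 2 0.84, EV replicate 3 0.65). Without EV replicate 1 it was 1.43 and passed. TUBA4A, at 4.98 to 6.38 CPM in WC and 2.71 to 4.56 CPM in EV libraries, had 2 reads in each EV library and a log2 fold change of -0.61 (edgeR adjusted p = 0.40, SE 0.56).

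TUBA1B and TUBA1C, which encode widely expressed alpha-tubulins, were almost absent from the gene counts. TUBA1B had 2 reads in each WC library and none in EVs, at or under the floor of 3 reads per library, so no fold is given. TUBA1C had 32 WC reads and 3 EV reads, a TMM-scaled EV to WC ratio of 0.609 with a counting interval of 0.119 to 1.95.

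TUBG1, the gamma-tubulin that nucleates microtubules, stood at 23.8, 25.1 and 16.1 CPM in WC and at 37.9, 47.9 and 27.0 CPM in EV libraries. All EV values lie above the WC values, the nearest by less than 2 CPM. The log2 fold change was 0.77 (edgeR adjusted p = 0.022, SE 0.27). It missed the threshold with total-count scaling (0.13), with DESeq2 (0.66), with no filter (0.57) and without EV replicate 1 (0.73), EV replicate 2 (0.60) or WC replicate 3 (0.53).

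**Figure D2:**
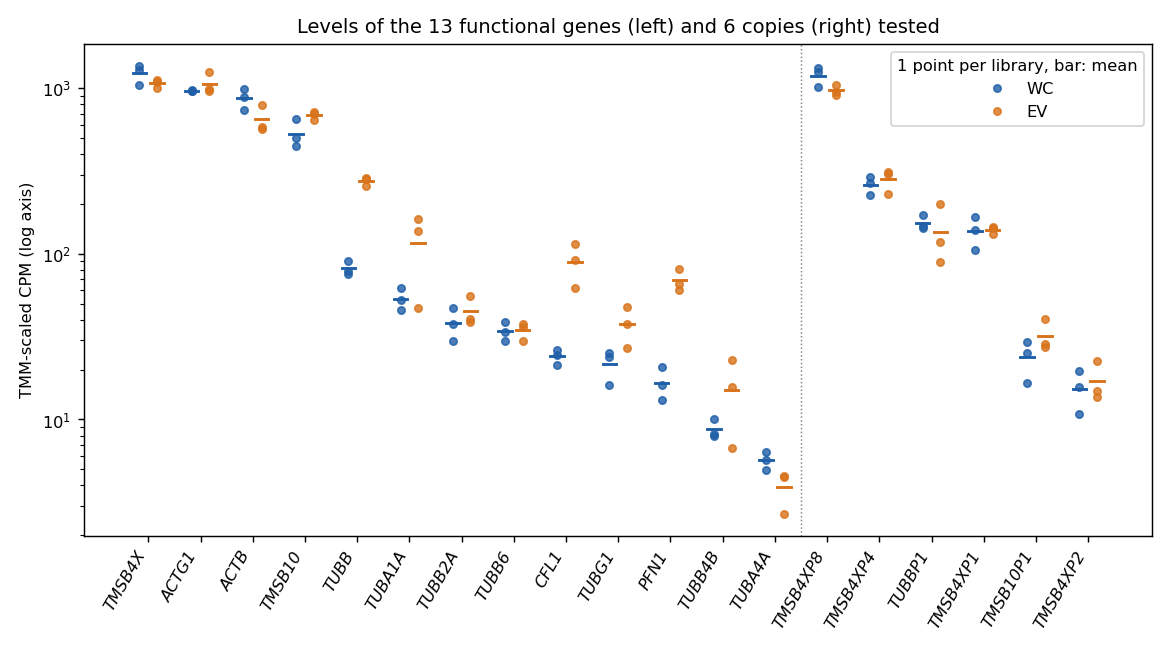
TMM-scaled CPM, on a log axis, of each tested functional gene and copy in each library, with 1 point per library and a bar at the mean of WC and of EV libraries. TUBB, CFL1 and PFN1 show separate groups, with EV values of 258 to 286, 62.2 to 115 and 60.8 to 81.1 CPM, while the 6 copies on the right overlap between groups.

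Divided by exon length, the thymosins were the most abundant functional members in both groups. In TPM, a level per exon base scaled to the library, recomputed with the exon length of each gene, TMSB10 had 1128 ± 148 in WC and 742 ± 28.3 in EVs, and TMSB4X 707 ± 51.7 and 315 ± 42.7 (SD, n = 3 each). ACTG1 followed with 235 ± 17.8 and 133 ± 31.4, and ACTB with 193 ± 14.9 and 74.2 ± 20.8 TPM. Below the actins, TUBB had 19.9 ± 3.25 TPM in WC and 34.0 ± 3.73 in EVs, and PFN1 10.2 ± 1.69 and 21.9 ± 5.17. CFL1 had 4.03 ± 0.186 TPM in WC and 7.52 ± 1.69 in EVs. Exon lengths joined over all annotated isoforms, such as 5865 nt for CFL1 against 1245 nt for its main transcript, lower these values. TPM carries no TMM factor, so its WC and EV values are not to be read as the changes given above. TMSB10 and ACTG1 had less TPM in EVs, but log2 fold changes of 0.35 and 0.13 with TMM.

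Together the members took 0.753%, 0.730% and 0.659% of the gene counts in WC and 0.522%, 0.440% and 0.422% in EV libraries. The groups do not overlap, and actin and thymosin beta-4 with their copies make up most of the gap. Actin took 0.231% ± 0.00572 in WC and 0.138% ± 0.0304 in EVs (SD, n = 3 each). Thymosin beta-4 took 0.355% ± 0.0344 and 0.197% ± 0.0221. Such shares carry no TMM factor. For all members the log2 ratio of the mean EV share to the mean WC share was -0.63. With total-count scaling the median log2 fold change of all genes tested was -0.78, so the members' share fell no more than the median gene. Profilin and cofilin went the other way, from 0.00354% ± 0.000648 to 0.00634% ± 0.00131 and from 0.00351% ± 0.000216 to 0.00747% ± 0.00167. As shares of TPM, all members took 1.28% ± 0.102 in WC and 0.598% ± 0.0757 in EVs. Most of this was on copies, with 1.05% ± 0.0868 in WC and 0.462% ± 0.0646 in EVs. Functional genes took 0.234% ± 0.0176 and 0.136% ± 0.0113. TMSB4XP8, whose reads are divided by an annotated length of only 135 nt, had 8654 ± 644 TPM in WC and 3606 ± 553 in EVs. No test was made on these shares, since the members were chosen with results known.

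Copies held a large part of the reads of the TMSB4X, TUBB and PFN1 families. The 6 copies of TMSB4X had 16811 WC and 2310 EV reads, more than TMSB4X itself with 12857 and 1748. Copies took 56.7% ± 0.300 of the thymosin beta-4 reads in WC and 56.8% ± 0.415 in EVs (SD, n = 3 each), so this share hardly moved. Most of them were on TMSB4XP8, a copy of 135 bases on chromosome 4 (90838903 to 90839037, - strand) that is annotated over the coding part of the mRNA alone. Per TMSB4X read it had 0.972, 0.971 and 0.969 reads in WC and 0.931, 0.876 and 0.912 in EV libraries. The WC ratios are nearly equal to each other and to 1, and the EV ratios are all lower (exact permutation test, p = 0.1, adjusted p = 0.167).

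Its level was 1314, 1241 and 1014 CPM in WC and 1044, 950 and 910 CPM in EV libraries, in the same order as TMSB4X within each group. The log2 fold change was -0.31 (edgeR quasi-likelihood adjusted p = 0.068, SE 0.14). TMSB4XP8 passed as a fall with DESeq2 (-0.42), with no filter (-0.52), with thinned WC libraries (-0.40), with total-count scaling (-0.96) and without EV replicate 1 (-0.40) or WC replicate 3 (-0.48). Over these and the other settings its adjusted p ran up to 0.203.

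The other tested thymosin copies changed little, with log2 fold changes of 0.09 (SE 0.17) for TMSB4XP4, 0.02 (SE 0.19) for TMSB4XP1 and 0.12 (SE 0.35) for TMSB4XP2, and negative values with total-count scaling. TMSB4XP4, with 618 bases the only long copy of the 4, had 0.216, 0.209 and 0.217 reads per TMSB4X read in WC and 0.269, 0.288 and 0.230 in EV libraries. These ratios do not overlap (exact permutation test, p = 0.1, adjusted p = 0.167), and those of TMSB4XP1, TMSB4XP2 and TMSB10P1 to their functional genes do. TMSB10P1 stood at 29.2, 25.1 and 16.7 CPM in WC and at 28.4, 27.3 and 40.5 CPM in EV libraries, with a log2 fold change of 0.41 (edgeR quasi-likelihood adjusted p = 0.26, SE 0.28) and of -0.24 with total-count scaling.

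TUBBP1, a transcribed processed copy of TUBB on chromosome 8 (30351873 to 30353518, + strand), parted from its functional gene. It had 2.243, 1.89 and 1.57 reads per TUBB read in WC and 0.705, 0.345 and 0.409 in EV libraries. The copy thus had more reads than TUBB in every WC library and fewer in every EV library (exact permutation test, p = 0.1, adjusted p = 0.167). Its own level was 170, 147 and 142 CPM in WC and 200, 88.9 and 117 CPM in EV libraries, with EV libraries on both sides of the WC range. The log2 fold change was -0.15 (edgeR quasi-likelihood adjusted p = 0.60, SE 0.21), -0.62 and past the threshold without EV replicate 1, and 0.06 without EV replicate 2. With the reads of all copies added to their functional gene, an alternative chosen after seeing the data, the rise of TUBB was 0.82 in place of 1.74 and that of PFN1 1.497 in place of 2.07, and both still passed the threshold.

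Copies of PFN1 took 41.2% ± 2.92 of the PFN1 family's reads in WC and 12.3% ± 6.47 in EVs (SD, n = 3 each), from 120 and 16 reads in all. For TUBB the share went from 65.9% ± 3.77 to 34.5% ± 8.17, and for TMSB10 from 4.56% ± 0.735 to 5.11% ± 1.32.

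**Figure D3:**
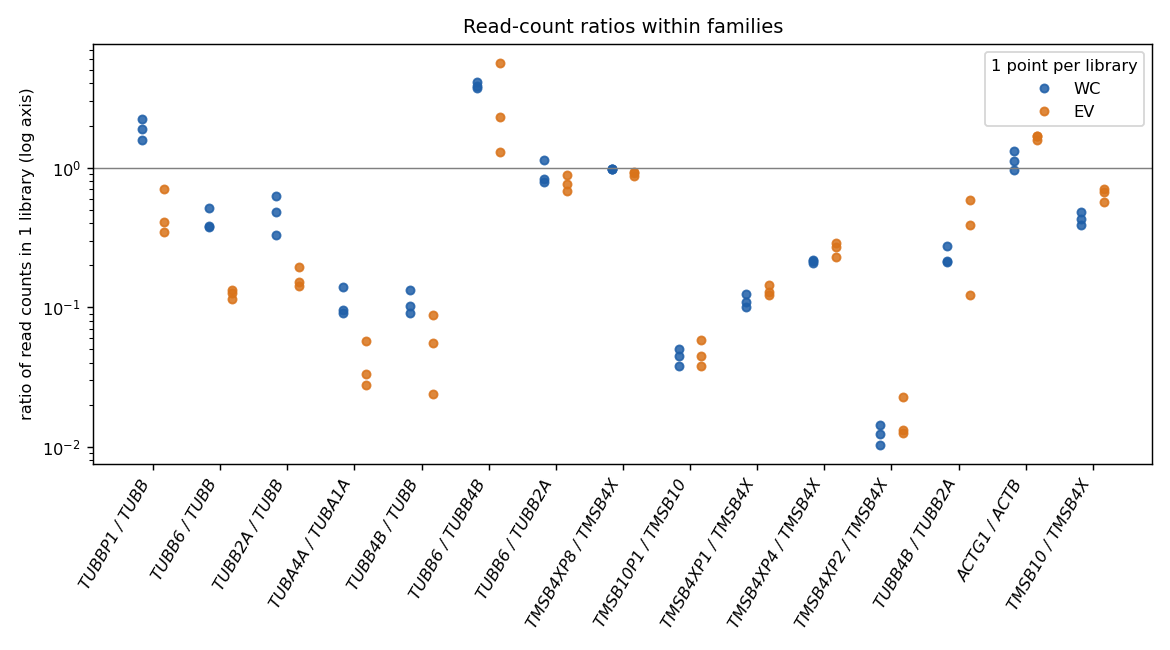
Ratio of the read counts of 2 genes of a family within each library, on a log axis, for 15 pairs ordered by their change from WC to EV. TUBBP1 over TUBB lies above 1 in the 3 WC and below 1 in the 3 EV libraries, TMSB4XP8 over TMSB4X stays between 0.876 and 0.972 in all 6, and ACTG1 over ACTB and TMSB10 over TMSB4X are higher in EVs.

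Copies with at least 10 reads resembled their functional gene more than copies without reads did. The 75 copies with a sequence in GENCODE v44 all aligned to it with blastn, and for 66 it was the best match among the 17 functional genes. The 19 copies with at least 10 reads had a median identity of 92.6% (85.5% to 99.3%), and the 30 without reads one of 84.9% (62.3% to 99.3%). The 26 copies with 1 to 9 reads were not part of this comparison. The tested copies had 99.3% (TMSB4XP8), 98.5% (TMSB4XP1), 95.2% (TMSB4XP2), 94.4% (TMSB4XP4), 97.4% (TUBBP1) and 93.3% (TMSB10P1). Reads that fit a copy and its functional gene about equally well can be counted on either or on both. How such reads were treated is not given in the sources used here, so the levels of these genes and copies are uncertain. If reads were counted on both, the shares of copies, the family shares and the sums of copies with their functional gene would count the same read again. This was not tested.

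Of the copies that missed the filter, those with the most reads were PFN1P2 (41 in WC and 2 in EV libraries), TUBBP2 (21 and 17), ACTBP2 (21 and 10), PFN1P1 (18 and 10) and TMSB10P2 (20 and 7). TUBBP2 had 2, 3 and 16 reads in the WC libraries and 10, 5 and 2 in the EV libraries, a TMM-scaled EV to WC ratio of 5.25 (95% counting interval 2.60 to 10.5), but 1 WC library held most of its WC reads. The ratios of ACTBP2 and PFN1P1 were 3.09 (1.30 to 6.86) and 3.61 (1.49 to 8.24), and those of TMSB10P2 and PFN1P2 had intervals that include 1. With 9 and 12 of their copies read, ACTB and ACTG1 had 63 and 40 WC reads on copies, few beside the 9083 and 10163 on the genes themselves. For TUBB4B, TUBB4BP3 had 7 WC and 8 EV reads, and with the reads of copies added TUBB4B had a log2 fold change of 0.91 and passed the threshold.

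The authors' isoform table gives a second view of these genes. It holds isoform models built from the same libraries by FLAIR, each with 1 mean normalised read count over all libraries. The authors' columns that compare WC with EVs were not used, so no comparison was made from it. Of the functional symbols, 15 had isoforms in it, 52 in all, of which 40 were predicted productive and 12 to carry a premature stop codon. No copy had an isoform in the table.

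For some members the 2 tables differ by far more than for most genes. Over 5075 genes, the isoform sum was a median of 0.547 times the mean normalised count of the gene table, with 5% of genes below 0.106 and 5% above 13.6. ACTB, at 0.543 times, and TUBB2A, at 0.587 times, were ordinary in this respect. TUBA1B had 914.7 reads in 5 isoforms but a mean of 0.397 in the gene table. TUBA1C had 234.0 against 3.30 and TUBB4B 162 against 15.4, ratios of 71.0 and 10.5, and 6.09% of genes had a ratio of 10 or more. PFN1 had 518 against 55.0 (9.42 times), CFL1 264 against 72.5 (3.65 times) and TMSB10 1973 against 795 (2.48 times). TUBB, summed over its IDs, had 455 against 229 (1.99 times). In the other direction TUBA1A had 16.2 against 109 (0.149 times). By the isoform table TUBA1B thus has the most reads of the 4 alpha-tubulins and TUBA1A the fewest, the reverse of the gene table, in reads that are not divided by length.

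The annotation shows where genes overlap, and the study's methods left reads on several overlapping genes unassigned as ambiguous. TUBA1B lies on chromosome 12 (49127782 to 49131397, - strand), and 1182 of the 1627 bases of its main transcript, among them 1098 of the 1157 bases of its last exon, are also exon of the antisense lncRNA TUBA1B-AS1. TUBA1B-AS1 had 55 WC and 4 EV reads. For TUBA1C 666 of 2823 bases were shared, for TUBA4A 628 of 2049 (with STK16), for TUBB 538 of 2515, for TUBB4B 124 of 1563, for PFN1 111 of 807 (with ENO3) and for CFL1 114 of 1245. The main transcripts of ACTB, ACTG1, TMSB4X, TUBB2A and TUBB6 shared none. Whether the counting used strand is not given in the sources used here, and the part of these overlaps in the levels was not tested.

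The isoforms of TUBB stand under other IDs. The table gives 421 reads to ENSG00000227739 and 34.1 to ENSG00000183311, 455 in all, on models that lie outside the chromosome sequences, and none to the ID on chromosome 6 that holds all TUBB reads of the gene table. Single isoforms led most genes: the main transcript of ACTB took 58.9% of its isoform reads, that of ACTG1 60.9%, that of CFL1 84.2% and that of TUBA1B 72.0%. TMSB4X was divided between 2 isoforms, TMSB4X-204 with 74.0% and TMSB4X-202 with 26.0%. All reads of PFN1 were on 1 unannotated isoform of 4 exons, while its annotated main transcript has 3. In ACTG1, ACTG1-213, predicted to carry a premature stop codon, took 18.2%, and in TUBG1 TUBG1-214, of the same kind, took 22.2%.

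**Figure D4:**
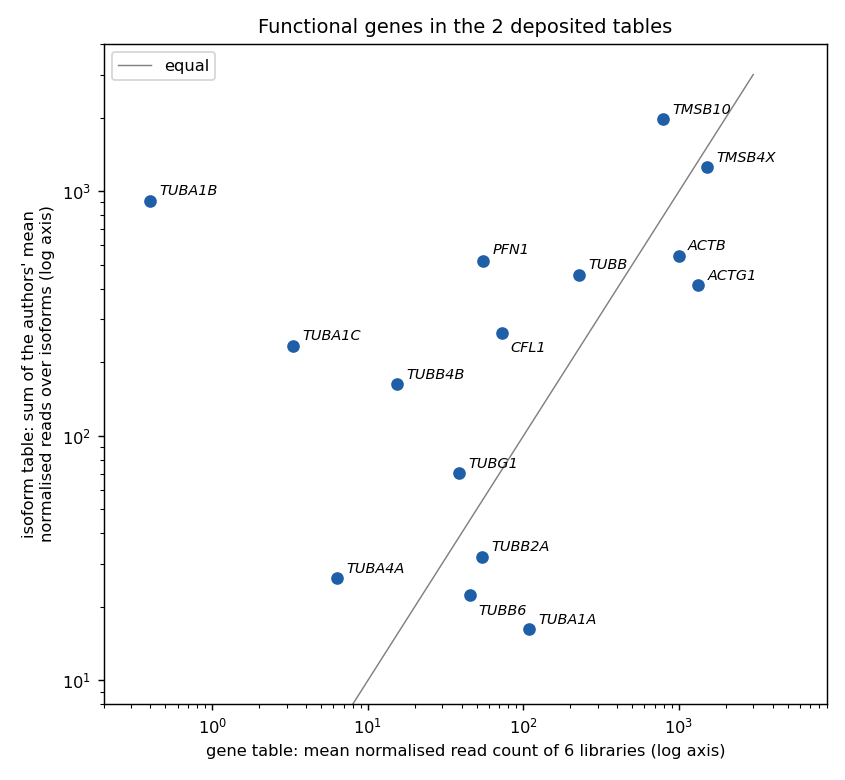
Functional genes by their mean normalised read count in the gene table (x) and by the sum of the authors' mean normalised reads over isoforms in the isoform table (y), both on log axes, with a line where they are equal. TUBA1B (0.397 and 914.7) and TUBA1C (3.30 and 234.0) lie far above the line, and TUBA1A (109 and 16.2) lies farthest below it.

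Other cytoskeleton genes were described through 4 lists. Of 116 tested, 27 rose (23.3%) and 19 fell (16.4%), close to the 22.8% and 21.4% of all genes, with a median log2 fold change of -0.009. With total-count scaling, which moved the median of all genes tested from -0.13 to -0.78, 9 rose and 64 fell. The shares of all genes that rose or fell under that scaling are not given here.

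Of 18 tested chaperone genes for actin and tubulin folding, 8 rose (44.4%) and none fell, with a median of 0.52. Over all genes 22.8% rose and 21.4% fell. Under total-count scaling 2 of the 18 rose and 8 fell, with a median of -0.13 against -0.78 for all genes tested. At an unadjusted p under 0.05 edgeR had 9 of the 18 up and none down, and DESeq2 8 up and none down. The 8 were the chaperonin subunits CCT2, CCT5 and CCT8, the prefoldin subunits PFDN1, PFDN2 and PFDN4, and the tubulin cofactor genes TBCA and ARL2. CCT8 went from 49.0 ± 2.10 to 214 ± 42.9 CPM (SD, n = 3 each), a log2 fold change of 2.10 (edgeR quasi-likelihood adjusted p = 1.5e-09, SE 0.19). ARL2 had 11 WC and 23 EV reads (log2 fold change 3.67, SE 0.50). It reached the minimum of the filter in EV libraries alone, where it is high, so that it had to differ, and PFDN1 reached it in all libraries of neither group. Of the 14 folding genes that reached the minimum in all libraries of both groups, 6 rose. The smallest rises were those of CCT2 (0.48, SE 0.17, edgeR adjusted p = 0.023) and PFDN4 (0.64, SE 0.19, edgeR adjusted p = 0.0069), which were at -0.18 and -0.02 under total-count scaling, where only CCT8 and ARL2 of the 8 still passed.

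Of 33 tested genes of actin filament assembly, 7 rose and 7 fell, with a median of -0.11. The largest rises were COTL1 (1.69, SE 0.27), which encodes an actin-binding protein of the cofilin superfamily, and DIAPH1 (1.43, SE 0.17), a formin that extends filaments, and both also passed under total-count scaling. The largest falls were WAS (-2.18, SE 0.65), an activator of the Arp2/3 complex of blood cells, from 90 WC and 3 EV reads, and CORO1B (-1.62, SE 0.34), a coronin that acts on the same complex. WAS and CORO1B reached the minimum of the filter in all WC but not all EV libraries, and of the 25 genes that did so in both groups 7 rose and 5 fell. Subunits of the Arp2/3 complex went both ways, with ARPC3 (1.07), ARPC4 (1.20) and ACTR2 (0.48) up and ARPC2 (-0.56) and ARPC5 (-0.57) down, although none of these 3 rises passed under total-count scaling, where ACTR2 was at -0.17.

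Of 26 tested genes of actin binding and myosin, 8 rose and 6 fell, with a median of 0.04. EZR (1.77, SE 0.25), which links filaments to the plasma membrane, and FSCN1 (1.58, SE 0.34), which bundles them, had the largest rises, and both also passed under total-count scaling. PDLIM7 (-0.92, SE 0.34) and VCL (-0.88, SE 0.22), the gene of the adhesion protein vinculin, had the largest falls. PDLIM7 did not reach the filter's minimum in all EV libraries, and of the 25 genes that did in both groups 8 rose and 5 fell. EZR and MSN, 2 genes of the same family, were called in opposite directions (1.77 and -0.74).

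Of 39 tested genes of microtubule dynamics and motors, 4 rose and 6 fell, with a median of -0.06. DYNLL1 (1.01, SE 0.18), a dynein light chain, and KIF2A (0.95, SE 0.36), a kinesin that depolymerises microtubules, had the largest rises, neither of which passed under total-count scaling (0.36 and 0.30). NDE1 (-1.96, SE 0.56), a dynein regulator, and HDAC6 (-1.27, SE 0.32), a tubulin deacetylase, had the largest falls. NDE1 did not reach the filter's minimum in all EV libraries, and among the 28 genes that did in both groups 4 rose and 4 fell.

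Of 30 further actin and tubulin family genes outside the symbol rule, 11 were tested. None rose and 5 fell (45.5%), where 22.8% and 21.4% of all genes did so. Under total-count scaling, with the median of all genes tested at -0.78, none rose and 7 fell. With edgeR and with DESeq2 none was up and 5 were down at an unadjusted p under 0.05. The 4 POTE genes among them encode proteins that end in an actin-like domain. POTEE went from 21.7 ± 1.32 to 2.40 ± 2.27 CPM, POTEF from 20.5 ± 0.984 to 3.16 ± 1.18 CPM, POTEI from 48.3 ± 10.96 to 11.7 ± 5.45 CPM and POTEJ from 9.58 ± 0.774 to 2.26 ± 2.25 CPM (SD, n = 3 each). Their log2 fold changes were -3.12, -2.72, -2.13 and -2.35, beside the -0.44 of ACTB. From 3 to 18 EV reads stand behind each of them. POTEE, POTEF and POTEJ reached the minimum of the filter through WC libraries, where they are high, so that they had to differ. Of the 4 family genes that reached it in all libraries of both groups, POTEI (edgeR's quasi-likelihood test, adjusted p = 1.4e-05, SE 0.34) and ACTR10 fell. ACTR10, a subunit of the dynein partner dynactin, fell by 0.86 on the log2 scale (edgeR adjusted p = 0.029, SE 0.31). ACTL6A (-0.01), ACTR1A (0.65, and -0.0017 under total-count scaling), ACTR1B (-0.99), ACTR6 (0.46, and -0.20), TUBD1 (-0.65) and TUBE1 (-0.24) did not pass the threshold.

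**Figure D5:**
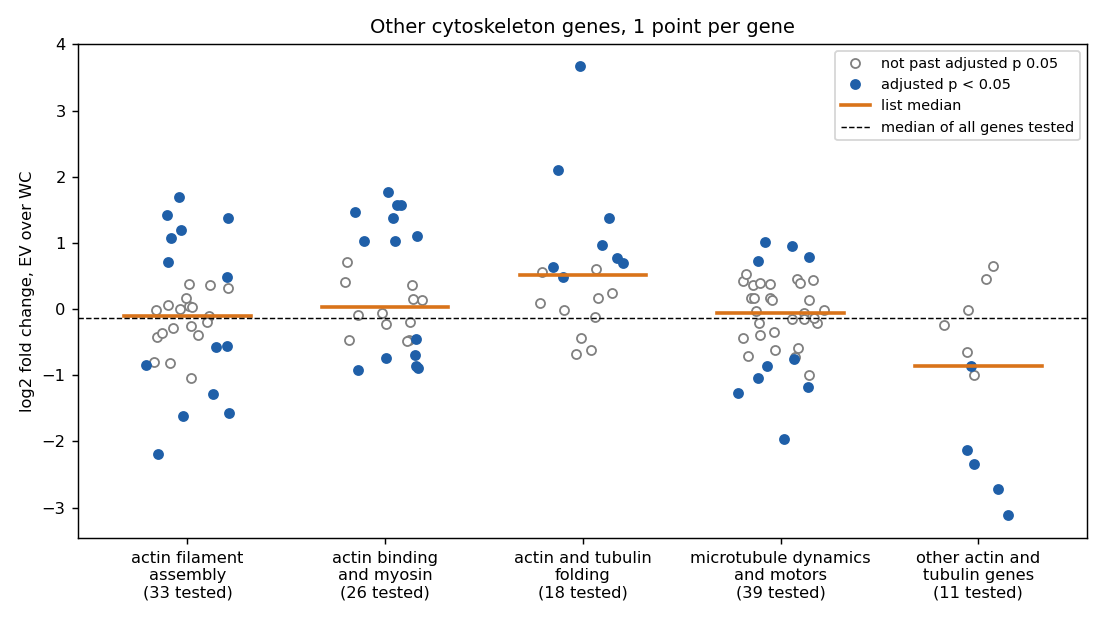
Log2 fold change, EV over WC, of the tested genes of 4 cytoskeleton lists and of further actin and tubulin family genes, filled where past the threshold, the median of each list and the median of all genes tested (-0.13). With TMM the folding list has 8 filled points above and none below 0, against 2 and 8 with total-count scaling. Among the further family genes the 4 lowest points are POTE genes at -2.13 to -3.12. With total-count scaling 9 of the 116 genes of the 4 lists rose and 64 fell, with the median of all genes tested at -0.78.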

How the data were processed

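RNA of 3 WC and 3 EV libraries of K562 was sequenced as PCR-cDNA on nanopores. The authors mapped reads to hg38 with minimap2 and used featureCounts with GENCODE v41 genes to count them. The deposited gene counts are raw read counts per library. The deposited signal values of the gene table are the authors' counts divided by 1 size factor per library (checked within 0.1%), and the deposited signal of the isoform table is the authors' mean normalised read count from FLAIR models. Columns of fold changes and p-values in both tables hold the authors' comparisons and were not used. Other columns of the isoform models give positions.

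Members were found by symbol and joined to counts by gene ID. The members and lists were chosen with earlier results of these data known. Repeated lines of 46 IDs were kept once, leaving 68201 genes. GENCODE v44 gave positions, exon lengths and transcripts. edgeR 4.0.16 (R 4.3.3) was run with TMM, its expression filter, quasi-likelihood fits made robust, and p-values adjusted by Benjamini-Hochberg. P-values of edgeR set the difference between EV and WC libraries against the variation within the groups, which the fit moderates over all genes. They cover these libraries only. Each SE is the absolute log2 fold change divided by the square root of edgeR's quasi-likelihood F statistic, and is approximate for genes with few reads. Ratios of reads between genes were compared by exact permutation of log2 ratios. Copies were aligned with blastn 2.17.0. Ratios of untested genes have exact 95% binomial intervals that cover counting error only, as PCR reads carried no molecular tags. Named were all functional genes, all tested copies, the 5 untested copies with most reads, the 2 largest changes per list and direction, and all tested further family genes. Members of lists named besides these were chosen after their values were seen. Replicate numbers pair WC and EV libraries from the same cultures according to the study's methods. The deviations of same-numbered libraries from their group means correlated at 0.062, 0.024 and 0.004. The fit was tested on simulated data of known change. Alternatives were DESeq2 1.42.0, other scaling and filters, a replicate block, thinned WC libraries, leaving out each library, and copies summed. The result of 1 cell type marker is not reported here.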

Additional observations from a re-analysis of the deposited data

Results flagged for a closer look

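Signal in the isoform table stood out for 3 members whose gene-level counts were too low for a test or near the limit of the filter, with at least 10 times as many reads in the isoform table as in the gene table. TUBA1B had 914.72 mean normalised reads there, TUBA1C 233.97 and TUBB4B 162.17. These values are the authors' means over all libraries, and their columns that compare WC with EVs were not used, so no difference between the groups is given.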

How the results depend on the processing

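PFN1, CFL1 and TUBB rose under all 14 alternatives. These all started from the same gene counts, so apart from the summing of copies they do not test how reads were assigned to genes. In the isoform table the 3 genes had 9.42, 3.65 and 1.99 times their mean of the gene table, against a median of 0.547 over genes. How this bears on their rises was not tested. Scaling to total counts gave 3 functional genes that rose and 6 that fell, 4 copies that fell, and 9 other cytoskeleton genes that rose and 64 that fell. The median of all genes tested was -0.78 under that scaling. With no filter 2 functional genes fell, 3 copies rose and 1 fell. With a mean of at least 5 reads 2 copies rose (ACTBP2, TUBBP2). DESeq2 gave 3 copies that rose (TUBB4BP3, TUBBP2, TUBBP6) and 1 that fell, and thinned WC libraries 1 copy that fell. As TPM, which carries no TMM factor, the members took 1.28% in WC and 0.598% in EVs, of which copies held 1.05% and 0.462%. Leaving out 1 library gave 3 to 6 functional genes that rose and 0 to 2 that fell, 0 to 2 copies that rose and 0 to 2 that fell. The lower count of 3 came without WC replicate 3 and without EV replicate 2. The replicate block changed no call of a member and gave 26 other cytoskeleton genes that rose and 18 that fell.

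Reversals concerned members that had not passed the threshold. With total counts ACTG1 was at -0.53, TMSB10 at -0.30, TMSB10P1 at -0.24, TMSB4XP1 at -0.63, TMSB4XP2 at -0.52, TMSB4XP4 at -0.56, TUBB2A at -0.38, TUBB4B at -0.0036 and TUBB6 at -0.62. With no filter ACTG1 was at -0.0787, TMSB4XP1 at -0.20, TMSB4XP2 at -0.0859, TMSB4XP4 at -0.12 and TUBB6 at -0.18. TMSB4XP1 was at -0.0013 with a mean of 5 reads. With DESeq2 TMSB4XP1, TMSB4XP4 and TUBB6 were at -0.0988, -0.0198 and -0.088. With thinned libraries TMSB4XP1, TMSB4XP2 and TUBB6 were at -0.11, -0.0505 and -0.0864. TUBB6 was at -0.0017 with the replicate block. Leaving out 1 library gave -0.0403 to 0.194 for ACTG1, -0.213 to 0.1209 for TMSB4XP1, -0.1465 to 0.2506 for TMSB4XP2, -0.0709 to 0.2004 for TMSB4XP4, -0.1422 to 0.1094 for TUBB6 and, for TUBBP1, -0.619 to 0.0632. The cause was not tested. EV libraries, with 560157 to 881338 counts, limit the precision for copies and for TUBA4A.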
